A study of Mus musculus with 4 samples.

Results

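DEAD and DEAH box helicases were read as a gene family in peak lists of RNA immunoprecipitation sequencing (RIP-seq) from mouse liver. The members are the genes whose listed name is Ddx or Dhx followed by a digit, and all their peaks in both lists were taken. There were 47 such genes, 31 named Ddx and 16 named Dhx, among 8889 genes with a peak in either list. They held 255 of the 41511 peaks of the AAV-NAT10 list and 188 of the 33968 peaks of the AAV-GFP list. AAV-NAT10 denotes livers of male C57BL/6 mice infected with an adeno-associated virus (AAV) that carries NAT10, the enzyme that places N4-acetylcytidine (ac4C) on RNA. AAV-GFP denotes livers of male C57BL/6 mice infected with the virus carrying GFP, a fluorescent protein. Age, viral dose, promoter and the number of animals do not appear in the labels, and the extraction text of the labels names db/db and lean mice, which the titles do not. The labels do not say whether the antibody bound a protein or ac4C.

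DEAD and DEAH box proteins use ATP to unwind or clamp RNA and to move proteins on it, and they are named after the amino acids of a conserved motif that binds ATP. DEAD box proteins mostly open short helices locally, whereas DEAH box proteins travel along a strand. Proteins of both kinds act in splicing and ribosome assembly. Liver makes many secreted proteins and so has a high demand for spliced mRNA and ribosomes.

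Each list compared 1 immunoprecipitated (IP) library with 1 input library, so there was no replicate and no test between the viruses. Intervals in parentheses are 95% Clopper-Pearson (exact) and reflect counting error alone. The depth of the libraries is unknown. A peak is a stretch of exon with more IP than background signal. Its fold enrichment is a linear ratio and its score is -10 times log10 of its p-value; both are the values of the authors' peak caller. Fold and score rank a peak within its own list and do not measure a change between lists. Covered length means the bases under all peaks of a gene added up. Of 8 hepatocyte markers (Alb, Apob, Ttr, Cps1, Cyp2e1, Hnf4a, Serpina1a and Tat), Apob and Cps1 held a peak in AAV-NAT10 and none did in AAV-GFP; peaks report enrichment and not level, so this does not describe the tissue.

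Most of the family held a peak. Of 54 RefSeq mouse genes with such a name, 47 (87.0%, 75.1 to 94.6) had a peak in either list, against 38.9% of 21900 protein-coding genes, which include genes that liver does not express. The 7 without a listed peak were Ddx3x, Ddx4, Ddx19a, Ddx25, Ddx28, Ddx43 and Ddx59. Ddx4 and Ddx25 act in germ cells. Ddx3x and Ddx19a have close copies, Ddx3y and Ddx19b, that did hold peaks, so their peaks are uncertain, since reads of close copies may be split or misplaced. Ddx5 and Ddx17, Ddx39 and Ddx39b, and Ddx21 and Ddx50 are related pairs too; how their reads were assigned was not tested. Some peaks of Ddx39, Ddx39b, Ddx41, Ddx42, Dhx40, Dhx57 and Dhx58 overlap another RefSeq gene, and without strand their reads cannot be told apart.

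All 47 members held a peak in AAV-NAT10 and 43 did in AAV-GFP. The 43 shared members were 91.5% (79.6 to 97.6) of the family, where 79.7% of all genes with a peak were shared. Members listed in AAV-NAT10 alone numbered 4 and made up 8.51% (2.37 to 20.4), below the background of 16.1%, which lay inside the interval. No member had a peak only in AAV-GFP (0 of 47, up to 7.55%), where the background was 4.29%. The 4 genes were Ddx17, Ddx49, Ddx11 and Dhx29.

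Ddx17 held the strongest signal of the 4. It encodes p72, a relative of Ddx5 that works in splicing, microRNA processing and transcription. Its single AAV-NAT10 peak spanned 547 bases on chromosome 15 (79546195 to 79546741, mm10), at a fold of 9.22 and with a score of 1992. It covered the annotated transcript start, at the 5′ end of the gene on the minus strand. In AAV-GFP no Ddx17 peak was listed. The remaining 3 genes were weak. Ddx49, a nucleolar helicase, held 2 peaks of 188 and 122 bases with folds of 3.75 and 3.34. Ddx11, a DNA helicase of sister chromatid cohesion, held 2 peaks of 646 and 206 bases, both at a fold of 3.34. Dhx29, which helps the scanning ribosome through structured leaders, held 1 peak of 612 bases at fold 3.73 and score 97.0. Of the 4, only Ddx17 kept its peak among the AAV-NAT10 peaks of highest fold or of smallest p-value. When only peaks with a score of at least 100 were taken, Ddx17 and Ddx49 kept a peak.

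Peaks over an annotated transcript start were found in 6 members, and the bases there are shown because such a peak was the whole signal of Ddx17. The first 30 transcribed bases are given 5′ to 3′ from RefSeq (GRCm38.p6, the assembly of mm10), with capitals where the pattern CNNCNNCNN matched ( a spacing of C described for ac4C sites, searched on the transcript strand with overlaps allowed).
Ddx17 (chr15:79546712-79546741, minus strand): gaaccCTACGCCGGttgcgcacattgcctt
Ddx10 (chr9:53248083-53248112, minus strand): gtgcgCCCCTGCGCCTTCTCCACacgctgg
Ddx19b (chr8:111027741-111027770, minus strand): gctttagtgaatgatttccctcggggcggt
Ddx50 (chr10:62651189-62651218, minus strand): acggtcctggccggcggggccgcccagccc
Dhx16 (chr17:35879778-35879807, plus strand): ctctttccgggtttcgcggtctgtggaatt
Ddx3y (chrY:1286584-1286613, minus strand): ccaaaactgtgtacgtaagctcttgcgttc
The peaks over the starts of Ddx17 and Ddx19b were listed only in AAV-NAT10, those of Dhx16 and Ddx3y only in AAV-GFP, and those of Ddx10 and Ddx50 in both lists. The starts of Ddx19b and Ddx50 are internal, with peaks 3981 and 7546 bases from the 5′ end of the RefSeq gene. The spaced C pattern matched in Ddx17 and Ddx10, and in 32.1% of all 32851 RefSeq starts. Of the members of known strand, 4 of 41 in AAV-NAT10 (9.76%, 2.72 to 23.1) and 4 of 38 in AAV-GFP (10.5%, 2.94 to 24.8) had a peak over a start. Among all genes the shares were 18.3% in AAV-NAT10 and 14.0% in AAV-GFP.

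The shared members were mostly covered over more bases in AAV-NAT10. Of the 43, 29 (67.4%, 51.5 to 80.9) were covered more in AAV-NAT10, against 58.8% of all shared genes, 11 more in AAV-GFP (25.6%, background 27.0%) and 3 equally (6.98%, background 14.2%). Among genes with at least 3 AAV-NAT10 peaks, a restriction chosen after the data were seen, the shares were close. There 24 of 33 members (72.7%) and 70.2% of all such genes were covered more in AAV-NAT10. The median difference, AAV-NAT10 minus AAV-GFP, was 175 bases in the family and 93 bases over all 7081 shared genes. By number of peaks, 27 members (62.8%, 46.7 to 77.0) had more in AAV-NAT10, 7 had more in AAV-GFP and 9 had equal numbers, against backgrounds of 46.4%, 14.4% and 39.1%. The direction depended on which peaks were taken. With the 16984 peaks of smallest p-value from each list, 8 of 26 shared members were covered more in AAV-NAT10 and 11 more in AAV-GFP, where all shared genes gave 39.2% and 34.9%. With the peaks of highest fold from each list the counts were 11 and 9 of 23, where all shared genes gave 54.7% and 29.6%. At scores of at least 100 they were 27 and 9 of 38, where all shared genes gave 59.3% and 24.4%. For peaks of at least 100 bases they were 28 and 12 of 43, where all shared genes gave 56.1% and 26.9%.

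In the full lists the larger differences were toward AAV-NAT10. The covered length was at least 1.5 times as large in AAV-NAT10 for 13 of the 43 members (30.2%, 17.2 to 46.1), where 14.0% of all shared genes passed this ratio. No shared member was covered at least 1.5 times as much in AAV-GFP (0 of 43, up to 8.22%), where 4.79% of shared genes were. A ratio of 2 was passed toward AAV-NAT10 by 2 members, Ddx54 and Ddx56 (4.65%, 0.568 to 15.8). This was below the background of 8.04%, which lay inside the interval. None passed it toward AAV-GFP (background 2.95%). Counts at ratios of 1.5 and 2 were not planned in advance. The 13 were Dhx38, Dhx32, Ddx23, Dhx40, Ddx56, Ddx54, Ddx18, Dhx37, Ddx51, Dhx57, Dhx34, Dhx30 and Ddx60. Among genes with at least 3 AAV-NAT10 peaks, a restriction chosen after the data were seen, 10 of 33 members (30.3%, 15.6 to 48.7) and 15.3% of all such genes passed. Among the peaks of smallest p-value, 4 of 26 members passed toward AAV-NAT10 and 3 toward AAV-GFP, where 9.0% and 6.68% of all shared genes did. Among the peaks of highest fold, 8 of 23 passed toward AAV-NAT10 and 4 toward AAV-GFP, where 21.3% and 9.94% did. Of the 13, Dhx40, Dhx38 and Ddx18 turned toward AAV-GFP under at least 1 restriction of the peaks.

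**Figure D1:**
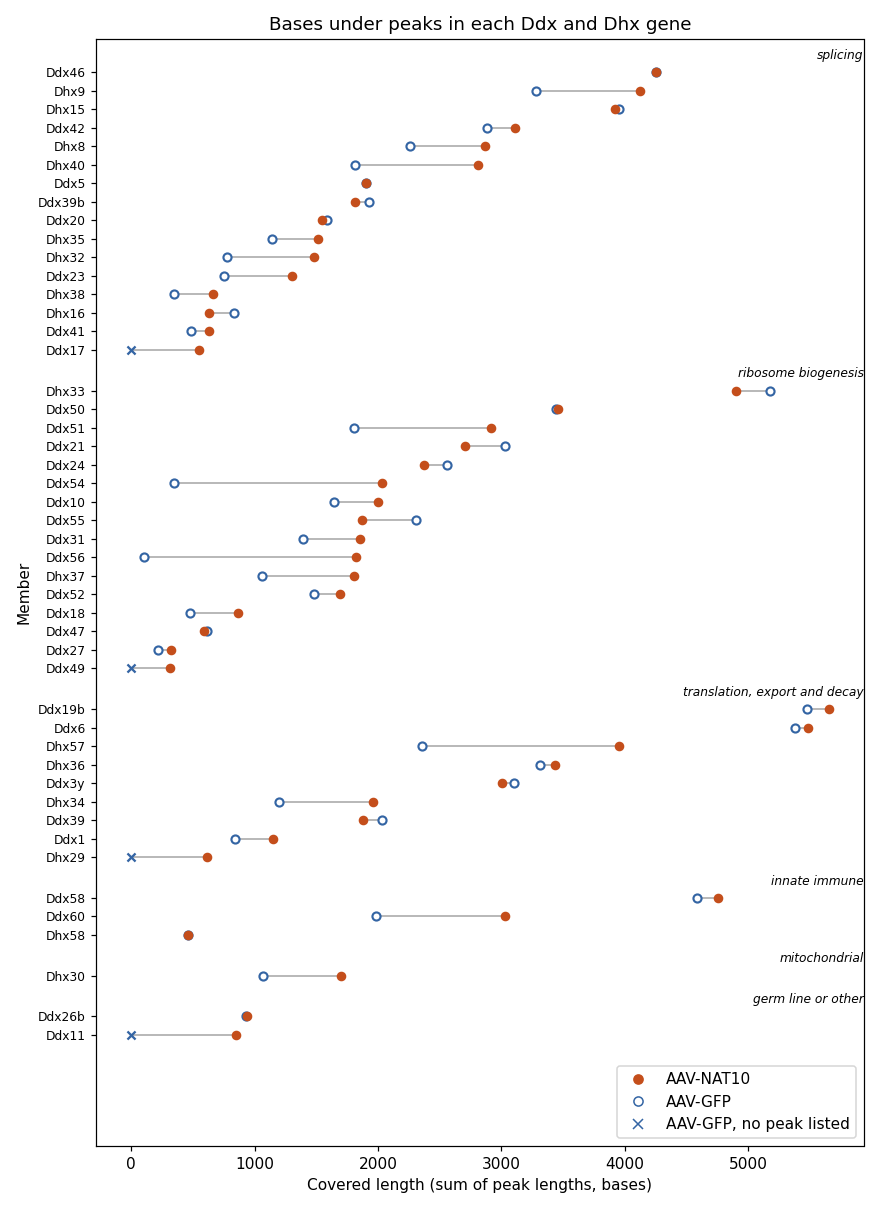
Covered length in bases (x axis) of each of the 47 members (rows, grouped by role), with AAV-NAT10 as filled circles, AAV-GFP as open circles and a cross where AAV-GFP lists no peak. Ddx56, Ddx54 and Dhx57 show the widest gaps toward AAV-NAT10, while Ddx46, Ddx5 and Dhx58 have equal values. Each point is 1 list made from 1 IP and 1 input library, without error bars.

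Splicing helicases formed a group of 16, with 98 peaks in AAV-NAT10 and 73 in AAV-GFP. Of the 15 shared members, 9 were covered more in AAV-NAT10, 4 more in AAV-GFP and 2 equally, with a median difference of 227 bases. All shared genes gave 58.8%, 27.0% and 14.2%, with a median of 93 bases, and a difference from them was not tested. Ddx46, the PRP5 helicase that acts when U2 joins the intron, held 12 peaks covering 4254 bases in each list, every one with the same borders. Ddx5 (p68) held a single peak of 1902 bases with the same borders and a score of 3100 in both lists, on chromosome 11 (106780355 to 106782256). Several members shared a score of exactly 3100, so those peaks have no order among themselves. Scores in both lists reached 3233, and the ceiling here means 3100 or above. Ddx39b (UAP56), which joins splicing to mRNA export, held 3 peaks in each list over 1813 bases in AAV-NAT10 and 1923 bases in AAV-GFP. Ddx5 kept equal lengths under the settings of fold, p-value, score and length, whereas Ddx46 was covered over 835 bases in AAV-NAT10 and 3743 in AAV-GFP among the peaks of highest fold, and over 4077 and 3888 bases among those with a score of at least 100.

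Dhx16 (PRP2), which activates the spliceosome, held 3 peaks over 629 bases in AAV-NAT10 and 4 over 831 bases in AAV-GFP, the largest ratio of the family toward AAV-GFP. Its difference turned toward AAV-NAT10 when peaks were restricted by fold, p-value or score. Only 2 of its peaks overlapped between the lists. Its highest-scoring AAV-NAT10 peak, at fold 7.21 and score 1516, had no AAV-GFP counterpart, and its AAV-GFP peak of highest fold (8.70) had no AAV-NAT10 counterpart. Dhx38 (PRP16), which acts between the splicing reactions, held 4 peaks over 661 bases in AAV-NAT10 and 2 over 343 bases in AAV-GFP, with a single overlap, and its order turned among the peaks of smallest p-value. Dhx8 (PRP22), which releases the spliced mRNA, held 12 peaks over 2863 bases in AAV-NAT10 and 9 over 2258 bases in AAV-GFP, and each of the 9 had the same borders in both lists. Dhx15 (PRP43), which takes the spent spliceosome apart, was covered over 3919 and 3956 bases in AAV-NAT10 and AAV-GFP. Every AAV-GFP peak of Dhx8 and Dhx15 thus had a counterpart, whereas Dhx16 and Dhx38 held unmatched peaks in both lists.

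Dhx9 (RNA helicase A) had the most AAV-NAT10 peaks of the splicing group. It held 13 peaks over 4124 bases in AAV-NAT10 and 12 over 3280 bases in AAV-GFP, on chromosome 1. Its longest unmatched peak, 996 bases at the 3′ end of the gene (153455758 to 153456753), was listed in AAV-NAT10 at fold 5.62 and score 647. Dhx40 held 11 peaks over 2812 bases in AAV-NAT10 and 3 over 1812 bases in AAV-GFP. This order turned among the peaks of highest fold (300 bases in AAV-NAT10, 1584 in AAV-GFP) and of smallest p-value (none in AAV-NAT10, 1416 in AAV-GFP). Its 8 AAV-NAT10 peaks without a counterpart made up 1000 bases and had folds of 5.08 to 7.70, while its 3 AAV-GFP peaks were all found again with the same borders. In Ddx23 (PRP28), which frees the 5′ splice site from U1, no peak overlapped between the lists: 2 peaks over 1306 bases stood in AAV-NAT10 and 1 peak of 749 bases in AAV-GFP. It was the only shared member of which this was so.

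Of the remaining splicing members, Ddx42 held 10 peaks in AAV-NAT10 and 8 in AAV-GFP. Ddx42, related to the SF3b part of the U2 particle, was covered over 3114 bases in AAV-NAT10 and 2887 in AAV-GFP, and its longest peak overlaps the neighbouring gene Ftsj3. Its order turned among the peaks of smallest p-value. Ddx20 (Gemin3), of the complex that assembles spliceosomal particles, was covered over 1549 and 1586 bases in AAV-NAT10 and AAV-GFP. Dhx32 was covered over 1480 and 778 bases, Dhx35 over 1511 and 1141, and Ddx41 over 627 and 482, in the same order. Dhx35 and Ddx41 held a peak in AAV-GFP alone among the peaks of smallest p-value, and Dhx35 also at scores of at least 100, so their direction toward AAV-NAT10 held only in part.

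Ribosome assembly helicases, which act on pre-ribosomal RNA in the nucleolus, also numbered 16, with 67 peaks in AAV-NAT10 and 54 in AAV-GFP. Of the 15 shared members, 10 were covered more in AAV-NAT10 and 5 more in AAV-GFP, where all shared genes gave 58.8% and 27.0%. A difference from all shared genes was not tested. This group held both extremes of the family. Ddx56, a nucleolar helicase of the large subunit, was covered over 1820 bases in AAV-NAT10 and 106 in AAV-GFP. A single peak made this gap: 1714 bases at the 3′ end of the gene on chromosome 11 (6257545 to 6259258), at fold 7.66 and score 619, listed in AAV-NAT10 alone. The 106-base peak was found in both lists with the same borders.

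Ddx54 was the next largest by ratio. It was covered over 2028 bases by 7 peaks in AAV-NAT10 and over 343 bases by 2 peaks in AAV-GFP, on chromosome 5. The 2 AAV-GFP peaks recurred with the same borders, and the other 5 AAV-NAT10 peaks had folds of 3.48 to 8.20. The strongest of these spanned 924 bases (120627060 to 120627983). Ddx51 was covered over 2916 bases in AAV-NAT10 and 1805 in AAV-GFP. Here the number of peaks went the other way, since 1 AAV-NAT10 peak of 2916 bases contained both AAV-GFP peaks of 872 and 933 bases. A count of peaks and a covered length can therefore point in opposite directions for a gene.

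Toward AAV-GFP the largest difference of the family was that of Ddx55, covered over 1867 bases in AAV-NAT10 and 2305 in AAV-GFP. All 3 of its peaks overlapped between the lists and the borders of 2 differed. With the peaks of highest fold the difference was 493 bases toward AAV-NAT10. Ddx21, which couples rRNA transcription to processing, was covered over 2706 bases in AAV-NAT10 and 3028 in AAV-GFP. Its longest peak, 2341 bases on chromosome 10 (62580267 to 62582607), had the same borders in both lists. In AAV-NAT10 that peak had a fold of 10.79, at percentile 86.0 of its list, and a score at the ceiling. In AAV-GFP it stood at fold 4.29 and score 414. Ddx21 was thus covered over fewer bases in AAV-NAT10 while its main peak ranked high there. AAV-NAT10 minus AAV-GFP was 2348 bases among the peaks of highest fold, -348 among those of smallest p-value and -501 at scores of at least 100.

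The other ribosome assembly genes lay between these extremes. Dhx33, which promotes transcription of ribosomal DNA, was covered over 4901 bases in AAV-NAT10 and 5176 in AAV-GFP, of which 3337 were a shared peak at the 3′ end. Ddx24 was covered over 2376 and 2555 bases in AAV-NAT10 and AAV-GFP, an order that turned when peaks were restricted by fold, p-value or score. Ddx47 was covered over 592 and 615, and Ddx50, a close relative of Ddx21, over 3455 and 3441, in the same order. Dhx37, which helps release the U3 RNA from the early small subunit, was covered over 1808 bases by 6 peaks in AAV-NAT10 and 1062 bases by 3 peaks in AAV-GFP. Ddx10 was covered over 2003 and 1640 bases in AAV-NAT10 and AAV-GFP, Ddx31 over 1856 and 1393, Ddx52 over 1694 and 1483, Ddx18 over 867 and 477, and Ddx27 over 322 and 215. The last 5 genes and Dhx37 were all covered more in AAV-NAT10 in the full lists. Ddx10 turned among the peaks of highest fold, and Ddx18 at scores of at least 100. Ddx50 turned among the peaks of highest fold, of smallest p-value and of at least 100 bases.

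Helicases of translation, mRNA export and decay numbered 9, with 55 peaks in AAV-NAT10 and 38 in AAV-GFP. Of the 8 shared members 6 were covered more in AAV-NAT10, and the median difference of the 8 was 145.5 bases. Over all shared genes 58.8% were covered more in AAV-NAT10 and the median was 93 bases. The direction turned for Ddx1 and Ddx39 among the peaks of highest fold, and for Ddx6, Dhx36 and Ddx3y among those of smallest p-value. Ddx6, the helicase of processing bodies that represses translation and aids decapping, carried the highest fold of the family in both lists. Its peak of 4243 bases on chromosome 9 (44636489 to 44640731) had a fold of 16.6 in AAV-NAT10, at percentile 98.0 of that list, and of 12.92 in AAV-GFP, at percentile 95.3. Both scores stood at the ceiling and the borders were the same.

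Ddx6 also had short peaks that differed between the lists. It held 10 peaks over 5483 bases in AAV-NAT10 and 8 over 5377 bases in AAV-GFP, 7 of them with the same borders. Peaks of 95, 123 and 358 bases, with folds of 12.89, 11.97 and 5.2, stood only in AAV-NAT10. The first and second were the highest folds among the member peaks of that list without a counterpart. A peak of 470 bases with a fold of 5.0 stood only in AAV-GFP.

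Dhx57 had the largest gain in covered length of the group, with 3955 bases in 12 peaks in AAV-NAT10 and 2355 bases in 5 peaks in AAV-GFP, on chromosome 17. All 5 AAV-GFP peaks overlapped an AAV-NAT10 peak, and 7 further AAV-NAT10 peaks over 1566 bases had folds of 3.10 to 8.18. Dhx34, a factor of nonsense-mediated decay, held 4 peaks over 1962 bases in AAV-NAT10 and 1 peak of 1197 bases in AAV-GFP. The shared peak had a fold of 8.97 in AAV-NAT10 and 11.56 in AAV-GFP. Both genes kept their AAV-GFP peaks and held more in AAV-NAT10.

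The other members of this group differed by fewer bases than Dhx57 and Dhx34. Dhx36, which unfolds G-quadruplexes, was covered over 3434 bases in AAV-NAT10 and 3316 in AAV-GFP, and all 10 of its AAV-GFP peaks had the same borders in AAV-NAT10. Ddx19b, which releases mRNA at the nuclear pore, was covered over 5652 bases in AAV-NAT10 and 5479 in AAV-GFP, of which 5126 were a single shared peak with folds of 4.32 in AAV-NAT10 and 4.78 in AAV-GFP. Ddx3y, the Y-linked copy of an initiation helicase, was covered over 3004 and 3105 bases in AAV-NAT10 and AAV-GFP, and its longest peak had folds of 10.95 and 10.77. Ddx39, an export factor, was covered over 1879 and 2032 bases in AAV-NAT10 and AAV-GFP by a peak that touches the neighbouring gene Adgre5. Ddx1, part of the tRNA ligase complex, was covered over 1148 bases in AAV-NAT10 and 844 in AAV-GFP.

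The innate immune helicases were few. Ddx60, an interferon-induced antiviral gene, held 16 peaks over 3029 bases in AAV-NAT10, the most peaks of any member, and 9 over 1981 bases in AAV-GFP. Its folds were 3.41 to 6.83 in AAV-NAT10, with 1 peak above the median of that list, and 3.61 to 5.56 in AAV-GFP, all below its median. Ddx58 (RIG-I), a sensor of viral RNA, was covered over 4757 bases in AAV-NAT10 and 4582 in AAV-GFP, an order that turned among the peaks of highest fold or smallest p-value, and Dhx58 (LGP2), its regulator, over 459 bases in both. Dhx30, which takes part in mitochondrial ribosome assembly, was covered over 1703 bases in AAV-NAT10 and 1068 in AAV-GFP. Its 837-base peak scored 3134 in AAV-NAT10 at a fold of 5.45, and 1650 in AAV-GFP at a fold of 5.03. Ddx26b, now named Ints6l, is not a helicase and held 1 peak in each list, of 938 bases in AAV-NAT10 and 933 in AAV-GFP. Among the peaks of smallest p-value it was listed in AAV-GFP alone.

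Peak by peak, the family, like the full lists, was mostly a shared set with additions in the longer AAV-NAT10 list. In AAV-NAT10, 164 of 255 peaks (64.3%, 58.1 to 70.2) shared at least 1 base with AAV-GFP, where 71.5% of all peaks of that list did. In AAV-GFP, 165 of 188 (87.8%, 82.2 to 92.1) shared a base with AAV-NAT10, where 87.4% of all did. Peaks of a gene share its transcript, so these intervals are too narrow. The same borders in both lists were found for 139 peaks, 54.5% of those in AAV-NAT10 (background 60.2%) and 73.9% of those in AAV-GFP (background 73.6%).

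The 91 AAV-NAT10 peaks without a counterpart covered 21371 bases, and the 23 such AAV-GFP peaks covered 4876. All but 6 of the 91, and all 23, lay in shared members. Their folds were lower: the median fold was 4.92 in AAV-NAT10, against 6.02 for its overlapped peaks, and 4.88 in AAV-GFP, against 5.70. Over all genes the medians were 4.92 against 7.35 in AAV-NAT10 and 4.88 against 6.56 in AAV-GFP. At least 1 unmatched AAV-NAT10 peak stood in 32 shared members and at least 1 unmatched AAV-GFP peak in 17. Every peak was matched in both lists in 8 members. The counts in shared members are not given here over all genes, so they do not set the family apart.

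**Figure D2:**
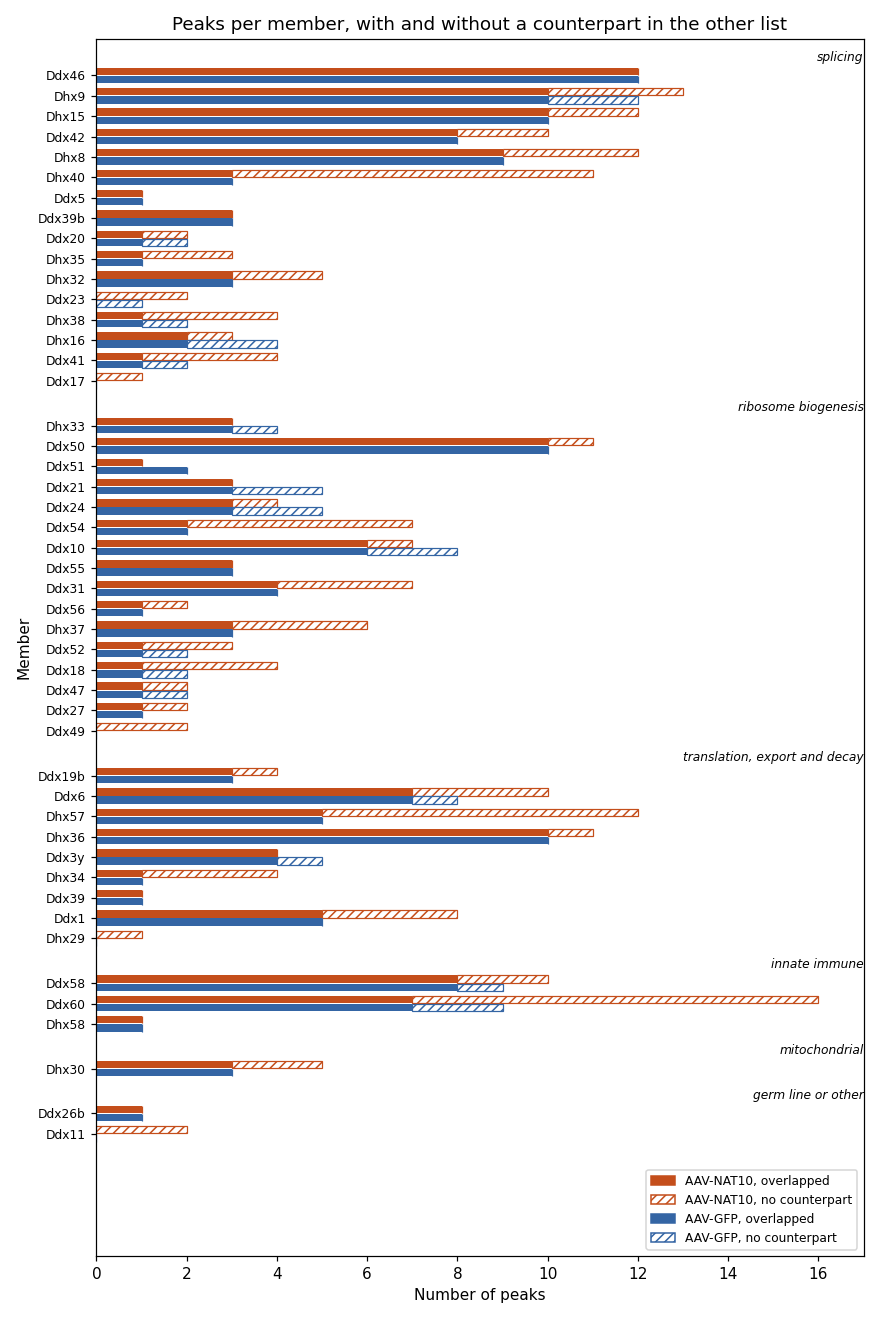
Number of peaks (x axis) of each member (rows, grouped by role) in AAV-NAT10 (upper bar) and AAV-GFP (lower bar), filled where the peak overlapped the other list and hatched where it had no counterpart. Ddx60 reaches 16 peaks in AAV-NAT10 and 9 in AAV-GFP, Dhx57 12 and 5, and Dhx40 11 and 3, while Ddx46 has 12 in both.

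The additions could be short pieces along the gene or a long piece at its end. In Dhx57, Dhx40 and Ddx60 they were several peaks of 95 to 649 bases. In Ddx56 and Dhx9 the longest added peak lay at the 3′ end, and in Ddx54 the longest added peak ended 609 bases before it. Over the 41 members of known strand with an AAV-NAT10 peak, 21 (51.2%, 35.1 to 67.1) had a peak reaching within 50 bases of the 3′ end of the RefSeq gene. In AAV-GFP 19 of 38 did (50%, 33.4 to 66.6). Among all genes the shares were 56.5% in AAV-NAT10 and 55.7% in AAV-GFP.

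**Figure D3:**
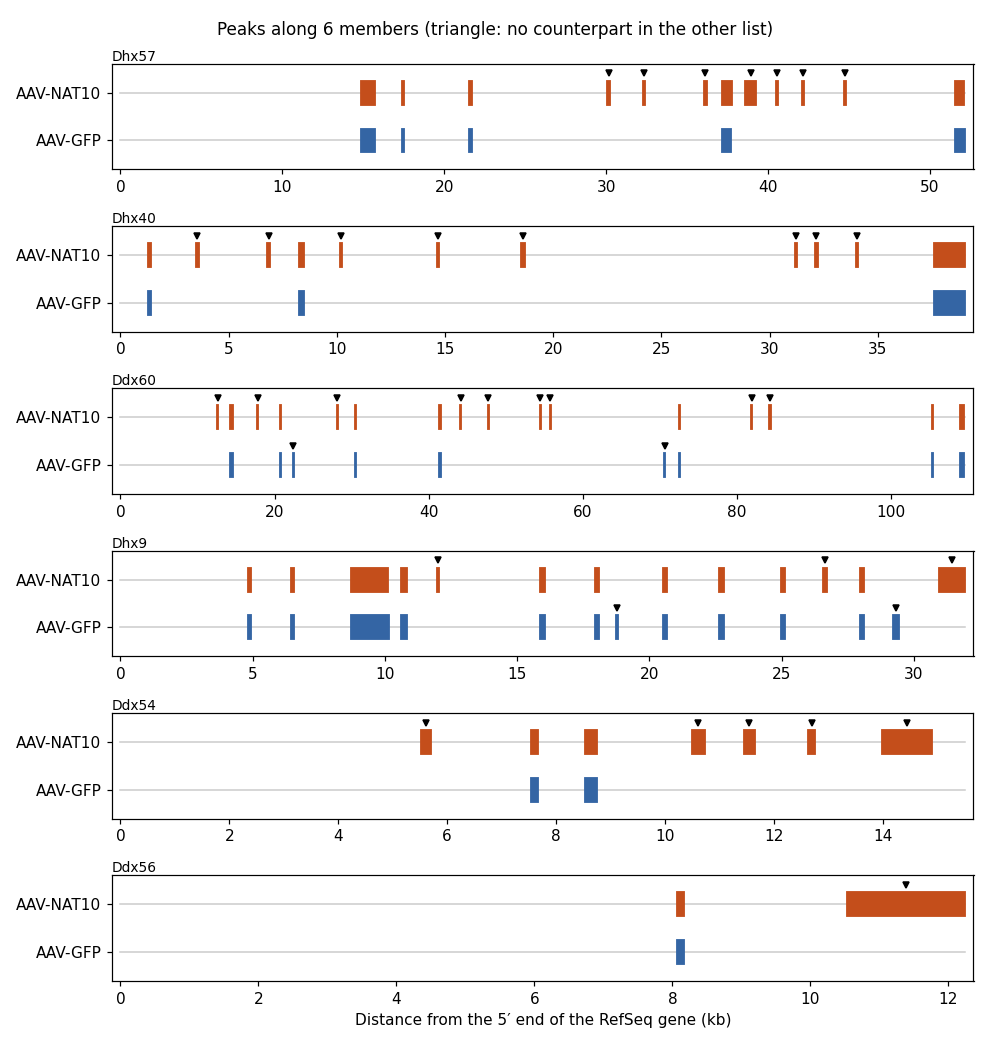
Peaks of 6 members along the gene, as distance from the 5′ end of the RefSeq gene in kb, with AAV-NAT10 above AAV-GFP in each panel; bars are to scale with a minimum line width, and triangles mark peaks without a counterpart. Dhx57 and Dhx40 show 7 and 8 marked peaks in AAV-NAT10 and none in AAV-GFP, and Ddx56 shows 1 long marked peak at its 3′ end.

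Helicase peaks ranked low by fold within both lists. The median fold of member peaks was 5.64 in AAV-NAT10, against 6.51 for all peaks, and 5.56 in AAV-GFP, against 6.33. The median member peak lay at percentile 37.6 of the AAV-NAT10 list and 37.8 of the AAV-GFP list. Among the highest 10.0% of folds stood 4 of 255 member peaks in AAV-NAT10 (1.57%, 0.429 to 3.97) and 4 of 188 in AAV-GFP (2.13%, 0.583 to 5.36), against 10.0% of all peaks by construction. All 4 in AAV-NAT10 belonged to Ddx6. The 4 in AAV-GFP belonged to Ddx6 (12.92), Ddx50 (11.97), Ddx42 (11.78) and Dhx34 (11.56).

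The score gave the same picture. At the ceiling stood 7 member peaks in AAV-NAT10 (2.75%, 1.11 to 5.57, background 6.96%) and 3 in AAV-GFP (1.6%, 0.330 to 4.59, background 4.56%). Ddx5, Ddx6 and Ddx39b were at the ceiling in both lists, and Ddx21, Ddx3y, Dhx30 and Dhx33 in AAV-NAT10. In AAV-GFP the corresponding peaks of Ddx3y and Dhx33 came close, with scores of 2805 and 2986.

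**Figure D4:**
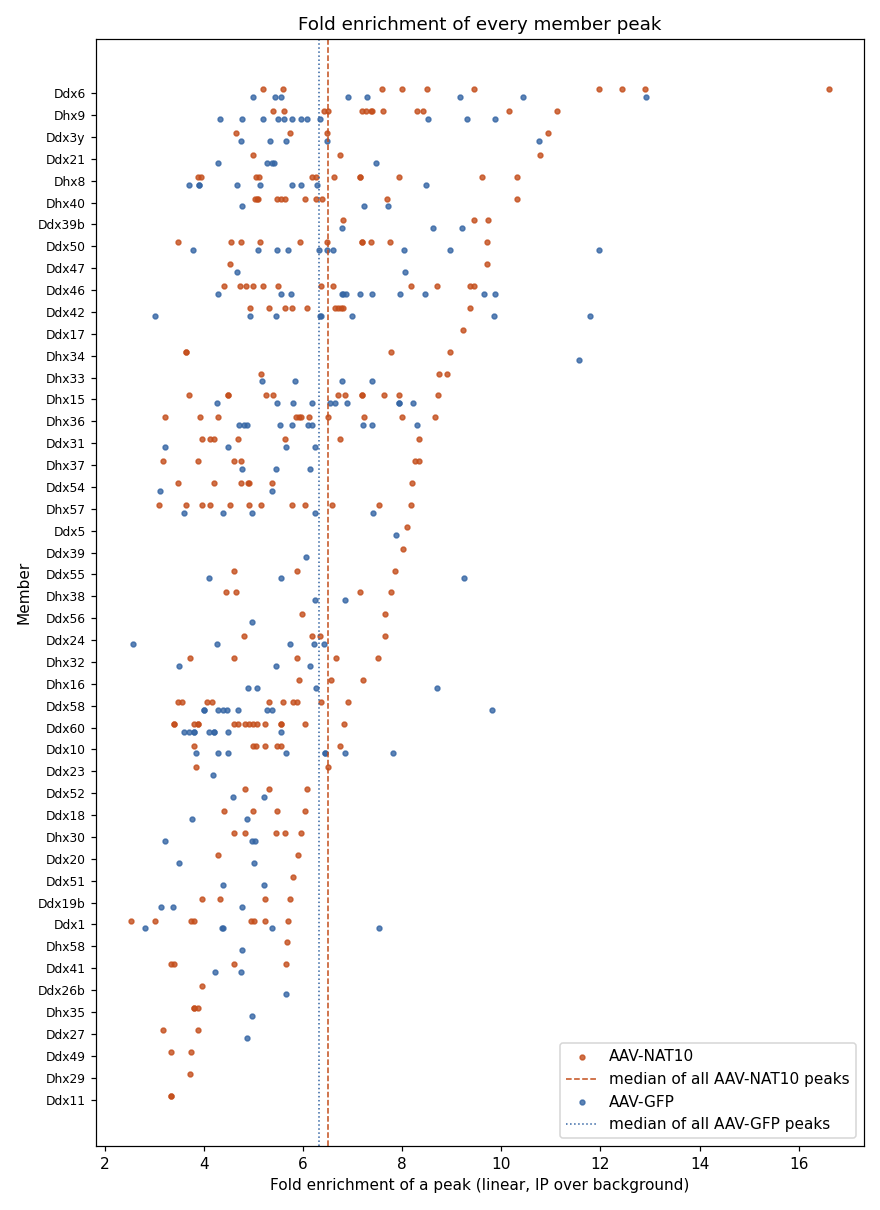
Fold enrichment (x axis, linear) of every member peak, with members ordered by their highest AAV-NAT10 fold, AAV-NAT10 points above AAV-GFP points, and vertical lines at the medians of all peaks of each list (6.51 in AAV-NAT10, 6.33 in AAV-GFP). Most points lie left of the lines, and Ddx6 reaches 16.6 in AAV-NAT10 and 12.92 in AAV-GFP.

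Members were also counted by name, a split not planned in advance. Of 15 shared Dhx members, 12 (80.0%, 51.9 to 95.7) had more peaks in AAV-NAT10, and of 28 shared Ddx members 15 did (53.6%, 33.9 to 72.5), where 46.4% of all shared genes did. By covered length the shares were closer. More bases were covered in AAV-NAT10 in 11 of 15 Dhx members (73.3%, 44.9 to 92.2). The same held in 18 of 28 Ddx members (64.3%, 44.1 to 81.4) and 58.8% of all shared genes. The median covered length difference was 605 bases in Dhx and 126 bases in Ddx members. These intervals overlap, and the difference between the subfamilies was not tested.

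RNA helicases outside the naming rule were read as a neighbouring list of 24 genes. Peaks in both lists were held by 16, in AAV-NAT10 alone by 2, in AAV-GFP alone by 0 and in neither by 6. Of all genes with a peak, 79.7% were in both lists, 16.1% in AAV-NAT10 alone and 4.29% in AAV-GFP alone. These shares leave out genes without a peak, so they compare with the 16, 2 and 0 once the 6 are set aside. Of the 16, 11 were covered more in AAV-NAT10, 4 more in AAV-GFP and 1 equally. All shared genes gave 58.8%, 27.0% and 14.2%, and a difference from them was not tested. The translation initiation helicase Eif4a2 held 1 peak of 1782 bases, in AAV-NAT10 alone. Eif4a1 and Eif4a3 held none. Snrnp200 (Brr2), which unwinds U4 from U6, held 10 peaks over 1779 bases in AAV-NAT10 and 3 over 600 bases in AAV-GFP. Ascc3 held 37 peaks over 6790 bases in each list. Aqr, the intron-binding helicase of the spliceosome, was covered over 3198 bases in AAV-NAT10 and 4883 in AAV-GFP, and Ifih1 (MDA5), a viral RNA sensor related to Ddx58, over 6262 and 4045 bases.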

How the data were processed

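RIP-seq was recorded for 4 libraries, 1 IP and 1 input per virus, and the deposited data are 2 peak lists. Peak names are those of MACS, per the file headers. Coordinates follow mm10, which the submitters' processing notes name; no source used here gives the caller version, aligner or filters. The fold is a linear ratio and the score is -10 log10 of the p-value, as deposited by the authors. Starts count from 0 and were raised by 1. Positions, lengths and scores are as the authors gave them.

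The members and lists were chosen with earlier results of these data known. Members, covered lengths and overlaps (at least 1 base) were computed with Python 3.11.15 and pandas 2.3.3, intervals with SciPy 1.17.1; the overlap code was tested on simulated data. Peaks appear cut to exons, and the lists give no strand. All 47 members matched RefSeq by gene ID, 41 with a strand. Each member was put under 1 of 6 roles. Members named in full were those in 1 list, the 5 largest covered differences each way, and the 5 highest folds and peak counts per list; every member is accounted for. Genome sequence of the peaks was not used here. Alternatives took other peaks, overlaps, members or peaks per gene.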

Additional observations from a re-analysis of the deposited data

How the results depend on the processing

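Counts moved with the peaks taken. With the peaks of highest fold (20755 in AAV-NAT10 and 16984 in AAV-GFP), 23 members were shared, 9 stood in AAV-NAT10 alone (23.6% of all genes did), 1 stood in AAV-GFP alone (9.16%), and 11 of the shared were covered more in AAV-NAT10. With 16984 top peaks from each list, 26 were shared, 5 stood in AAV-NAT10 alone (13.3% of all genes) and 4 in AAV-GFP alone (10.2%). Of the shared, 8 were covered more in AAV-NAT10, and 60.8% of AAV-GFP member peaks overlapped. Both settings take fewer peaks. A covered length at least 1.5 times as large in AAV-NAT10 was found for 8 members with the highest folds and 4 with equal top peaks, and one at least 1.5 times as large in AAV-GFP for 4 and 3; these settings were added for this count after its value was seen. With scores of at least 100, 6 members stood in AAV-NAT10 alone (18.2% of all genes) and 1 in AAV-GFP alone (4.44%). At that setting 56.3% of AAV-NAT10 member peaks overlapped. When a gene needed at least 2 peaks, 7 members counted in AAV-NAT10 alone and 1 in AAV-GFP alone. That count is not given here over all genes, nor are the restricted overlap shares over all peaks, so neither describes the family in particular. The direction of covered length turned for 10 of 43 shared members with the highest folds, 13 with equal top peaks, 4 at scores of at least 100 and 1 with peaks of at least 100 bases, 19 members in all. The causes were not tested. No paired analysis was possible because each virus has 1 IP and 1 input library. Unknown depth limits every count.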
